A study of Homo sapiens with 6 samples.

Results

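RGS2 and 8 other regulators of G-protein signalling (RGS1, RGS3, RGS10, RGS12, RGS14, RGS16, RGS18 and RGS19) were followed in OCI-AML3, a human cell line that was established from acute myeloid leukaemia. These 9 genes were found by symbol among the 60660 gene IDs of the deposited files, and 12 further genes with an RGS symbol were set beside them. The study sequenced RNA from 3 libraries of cells overexpressing SLC2A3, the gene of the glucose transporter GLUT3, and from 3 libraries of cells with an empty lentiviral vector. Both groups received 250 µM vitamin C. No cells without vitamin C are analysed here. The labels say neither whether the replicates of a group are separate cultures nor whether the lines are clones, so the spread between replicates may be technical. The 9 members were chosen from a list of genes proposed with results of this same comparison known. Their levels and fold changes are therefore given as a description, and nothing is supported with them.

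RGS proteins are GTPase-activating proteins for the alpha subunits of heterotrimeric G proteins. A receptor that binds its ligand makes the alpha subunit exchange GDP for GTP, which frees alpha and beta-gamma subunits to act on adenylyl cyclases, phospholipases and channels. RGS proteins speed the hydrolysis of that GTP and so shorten the signal. In white blood cells and their precursors the family is known for tuning responses to chemokines and other ligands that act through Gi and Gq.

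Gene values are normalised reads, which are read counts that the authors had divided by a scaling factor for each library. The libraries held 31054462 to 35770556 reads. SLC2A3 itself had 4056, 3716 and 4054 normalised reads in the SLC2A3 overexpression libraries, against 1194, 1183 and 1257 in the empty vector libraries, so the labels matched the targeted gene. Myeloid marker genes summed to between 39473 and 43832 normalised reads in the SLC2A3 overexpression libraries, against 39863 to 41303 in the empty vector libraries. Of these, SPI1, CEBPA, LYZ and CD33 were abundant. The T cell markers CD3D and CD3E, the B cell marker MS4A1 and the erythroid marker HBB had no reads in any library. Markers of other cell types summed to between 1983 and 2057 normalised reads in the SLC2A3 overexpression libraries, against 2117 to 2266 in the empty vector libraries, and most of this was PECAM1.

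Among the 8 members with enough reads to test, RGS2 had the largest ratio between the groups. It is a small RGS protein that acts mainly on Gq alpha subunits, and it is also known to bind adenylyl cyclases and the translation factor eIF2B. The gene (ENSG00000116741.8) lies on chromosome 1 at 192809039 to 192812283 on the forward strand of GRCh38. RGS2 had 295, 222 and 242 normalised reads in the 3 SLC2A3 overexpression libraries, against 111, 120 and 108 in the 3 empty vector libraries. Every SLC2A3 overexpression library lay above every empty vector library, with the first replicate the highest. The means were 253 ± 37.6 with SLC2A3 overexpression and 113 ± 6.20 with the empty vector (SD, n = 3 each), a ratio of 2.24. On the log2(value + 1) scale the RGS2 difference was 1.15 (SE 0.149, 95% interval 0.84 to 1.45). These values rest on 777 reads in the SLC2A3 overexpression group and 337 in the empty vector group. The SD of RGS2 was 14.8% of its mean with SLC2A3 overexpression, where counting error alone gives 6.21%. With the empty vector it was 5.48%, where counting error gives 9.44%. In RNA from a whole culture, more cells with RGS2 and more RGS2 RNA per cell cannot be told apart.

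**Figure D1:**
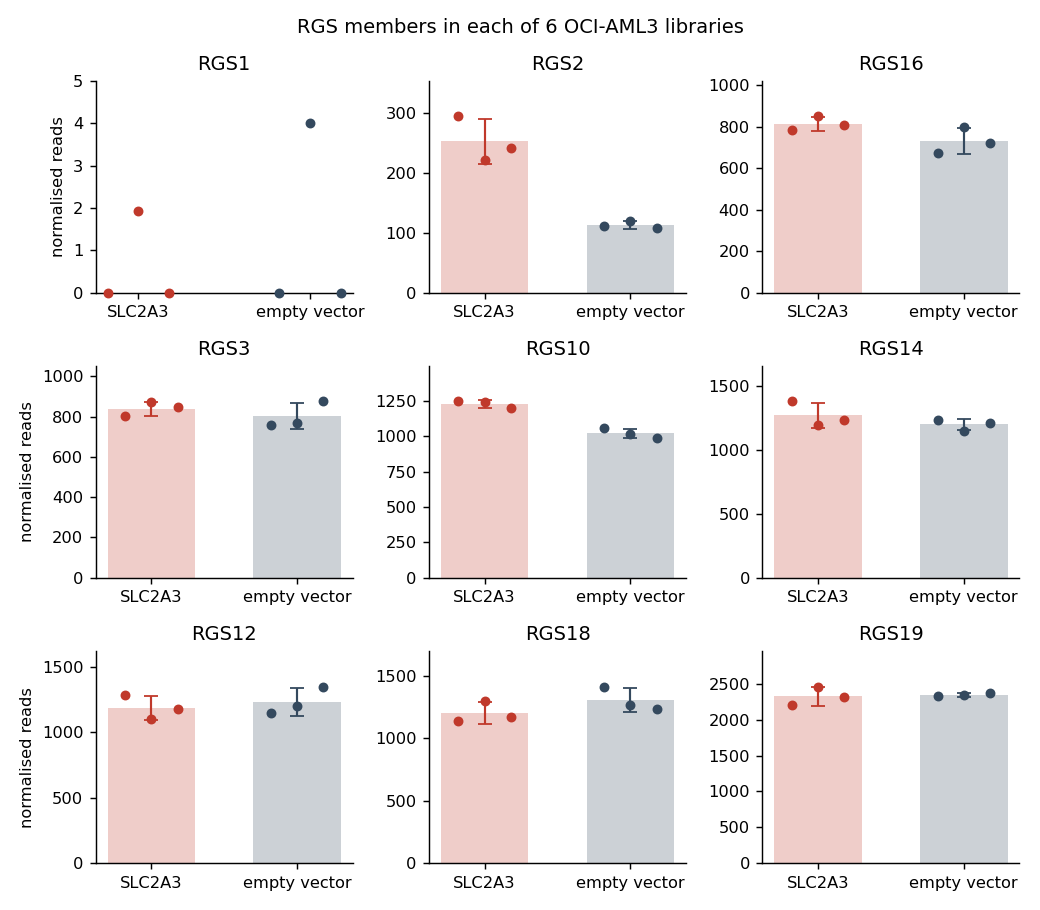
Normalised reads (vertical axes, linear from 0, one scale per gene) of the 9 members in each library, SLC2A3 overexpression left and empty vector right. Points are libraries, and bars with whiskers are means ± SD (n = 3), left out for RGS1 because most of its libraries had no reads. RGS2 and RGS10 are the members whose groups do not overlap.

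The bases just before the transcription start are shown for RGS2, for RGS10, the other member with separate groups, and for RGS18, the member with the most negative log2 difference, which lies in the same cluster of RGS genes as RGS2. Each is the 250 bases before a start in RefSeq on GRCh38.p14, written 5′ to 3′ on the gene's own strand. The RGS2 stretch is chr1:192808789-192809038 on the forward strand, the RGS10 stretch is chr10:119542720-119542969 on the reverse strand, and the RGS18 stretch is chr1:192158212-192158461 on the forward strand. Capitals mark matches on either strand to the short core of the cAMP response element (TGACG), the AP-1 element (TGANTCA), the heat shock core (GAANNTTC), the hypoxia response core (ACGTG), the CCAAT box, the GC box (GGGCGG) and the TATA box (TATAAA).
RGS2: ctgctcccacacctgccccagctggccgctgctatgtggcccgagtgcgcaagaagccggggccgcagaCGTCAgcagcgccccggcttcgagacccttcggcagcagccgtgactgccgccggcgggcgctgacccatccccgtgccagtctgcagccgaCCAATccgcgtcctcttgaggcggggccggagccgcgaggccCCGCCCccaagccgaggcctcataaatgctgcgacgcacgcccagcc
RGS10: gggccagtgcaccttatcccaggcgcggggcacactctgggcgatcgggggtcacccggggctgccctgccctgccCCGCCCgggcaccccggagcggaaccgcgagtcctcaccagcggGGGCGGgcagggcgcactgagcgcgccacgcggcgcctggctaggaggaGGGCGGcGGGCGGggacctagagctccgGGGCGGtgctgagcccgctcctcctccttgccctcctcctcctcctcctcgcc
RGS18: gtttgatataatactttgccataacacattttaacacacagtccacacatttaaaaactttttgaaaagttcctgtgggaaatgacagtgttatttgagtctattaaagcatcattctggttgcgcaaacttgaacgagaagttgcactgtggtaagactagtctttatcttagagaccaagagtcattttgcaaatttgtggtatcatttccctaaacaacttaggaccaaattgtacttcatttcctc
The RGS2 stretch was 72.8% G and C, the RGS10 stretch 77.2% and the RGS18 stretch 34.8%, where the median over 35116 RefSeq promoter stretches of this length was 58%.

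In the RGS2 stretch, TGACG stood on the reverse strand 181 bases before the start, CCAAT on the forward strand 89 bases before it, and GGGCGG on the reverse strand 47 bases before it. TGACG is common, being present in 21.2% of all 35116 stretches, as are CCAAT in 32.0% and GGGCGG in 42.6%. The full element TGACGTCA, which contains TGACG, was in 1.65% of all stretches and not in that of RGS2. TGANTCA (6.57% of all stretches), GAANNTTC (5.78%), ACGTG (18.5%), CACGTG (6.34%), which contains ACGTG, and TATAAA (10.7%) were likewise not among the letters of the RGS2 stretch. The RGS10 stretch held 5 copies of GGGCGG and none of the other motifs. RefSeq gives RGS10 a second start, not shown, whose stretch was 46% G and C and held none of the motifs. RGS18 had none of the motifs in its stretch. A match of letters describes the sequence and does not show that a factor binds there.

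The other members of RGS2's subfamily, R4, are RGS1, RGS3, RGS16 and RGS18, which act on Gi and Gq alpha subunits. Most are short proteins, while RGS3 also has long forms with further domains. RGS1 (chromosome 1, 192575727 to 192580031), best known from B and T lymphocytes, had 2 reads in the SLC2A3 overexpression group and 4 in the empty vector group. It fell below the minimum for testing, and no fold is given. RGS16 had 785, 850 and 806 normalised reads in SLC2A3 overexpression libraries, against 674, 796 and 723 in empty vector libraries. The groups of RGS16 overlapped by a single pair of libraries, and its log2 difference was 0.16 (SE 0.080, 95% interval -0.01 to 0.32). RGS3 had 800, 870 and 846 normalised reads with SLC2A3 overexpression, against 759, 768 and 875 with the empty vector. Its highest value was in an empty vector library, and the log2 difference was 0.07 (SE 0.078, 95% interval -0.09 to 0.23).

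RGS18, which is known from platelets and their precursors, had 1136, 1302 and 1169 normalised reads with SLC2A3 overexpression, against 1415, 1268 and 1238 with the empty vector. The groups overlapped. Its log2 difference was -0.12 (SE 0.071, 95% interval -0.27 to 0.03), so the interval covered no difference as well as a modest decrease. RGS18 shares 153 exon bases with an antisense long noncoding RNA in GENCODE 29, and whether counting used strand is not stated. That RNA (AL390957.1) spans RGS18 to RGS2 on the reverse strand, with no exon base shared with RGS2. It averaged 39.8 ± 15.3 normalised reads with SLC2A3 overexpression and 57.0 ± 19.3 with the empty vector.

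RGS10 was the other member above its empty vector level in every library. It is a compact regulator of Gi alpha subunits, known from microglia and other myeloid cells, and lies on chromosome 10 at 119499828 to 119542708. RGS10 had 1247, 1247 and 1199 normalised reads in SLC2A3 overexpression libraries, against 1056, 1017 and 989 in empty vector libraries. The replicates of each group lay close together. RGS10 averaged 1231 ± 27.4 with SLC2A3 overexpression and 1021 ± 33.7 with the empty vector (SD, n = 3 each), a ratio of 1.21. The log2 difference was 0.27 (SE 0.066, 95% interval 0.13 to 0.41). Its place past the threshold was narrow: with any 1 of the 6 libraries left out it no longer passed, although the log2 difference stayed between 0.25 and 0.29.

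RGS12 and RGS14 carry, beside the RGS domain, Ras-binding domains and a GoLoco motif that holds Gi alpha subunits in the GDP-bound state. RGS12 had 1283, 1102 and 1179 normalised reads with SLC2A3 overexpression, against 1149, 1201 and 1351 with the empty vector. RGS14 had 1376, 1193 and 1234 with SLC2A3 overexpression, against 1234, 1145 and 1210 with the empty vector. Both genes overlapped between the groups, with log2 differences of -0.05 for RGS12 (95% interval -0.20 to 0.10) and 0.08 for RGS14 (95% interval -0.06 to 0.22). RGS19, a regulator of Gi alpha subunits with a cysteine-rich stretch that anchors it to membranes, had 2202, 2466 and 2323 normalised reads with SLC2A3 overexpression, against 2330, 2345 and 2381 with the empty vector. The RGS19 log2 difference was -0.01 (95% interval -0.13 to 0.10), and the empty vector values lay inside the range of the others.

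Of the 9 members, 8 passed the filter on low values. Of these, RGS2 and RGS10 were higher past the threshold (limma adjusted p under 0.05), 0 were lower and 6 did not pass. edgeR's quasi-likelihood test on the recovered reads also called 2 higher and 0 lower, and DESeq2 called 1 higher, RGS10, and 0 lower, having given RGS2 no adjusted p. With limma, 0 members were lower at an unadjusted p under 0.05. edgeR called 3.29% of the genes it tested, either way. DESeq2 called 7.98%, either way, of the 9827 genes to which its default filtering gave an adjusted p, out of 37328 fitted. Over all 28015 genes tested with limma, 0.692% were called higher, 0.8% lower and 1.49% either way, and 11.8% had an unadjusted p under 0.05. The groups did not overlap for 2 of the 8 members and for 16.3% of all genes tested. Nothing is read from these shares, since the members were chosen with this comparison known. The median log2 difference was 0.08 over the 8 members and 0.00 over all genes tested.

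**Figure D2:**
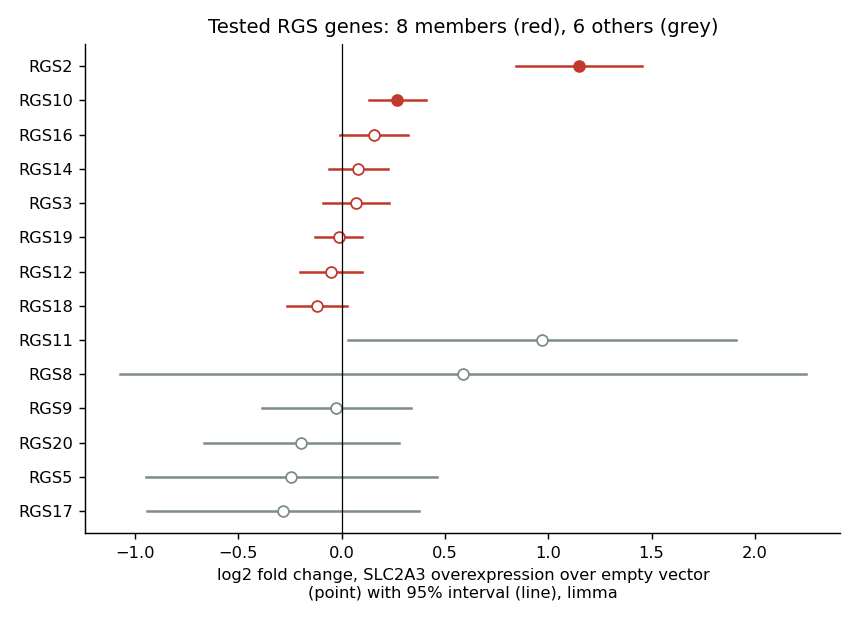
Log2 difference of SLC2A3 overexpression minus empty vector (horizontal axis, log2 of value + 1) with 95% intervals for the 8 tested members (red) and 6 other tested RGS genes (grey). Filled points passed limma's adjusted p threshold of 0.05; RGS2 at 1.15 stands far to the right of RGS10 at 0.27, and RGS11 has a wide interval.

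Levels of different genes were compared per 1000 bases of annotated exon. RGS19 was the most abundant member on this scale, at 1149 ± 65.3 with SLC2A3 overexpression and 1160 ± 12.96 with the empty vector (SD, n = 3 each). It was followed by RGS10 at 983 ± 21.9 with SLC2A3 overexpression and 815 ± 26.9 with the empty vector, then by RGS18 at 429 ± 31.4 with SLC2A3 overexpression and 466 ± 33.7 with the empty vector. RGS16 (335 ± 13.6 with SLC2A3 overexpression, 301 ± 25.3 with the empty vector) and RGS14 (334 ± 25.3 with SLC2A3 overexpression, 315 ± 12.1 with the empty vector) did not differ beyond their spread. RGS2 stood at 121 ± 18.0 normalised reads per 1000 exon bases with SLC2A3 overexpression, above RGS12 at 86.4 ± 6.62 and RGS3 at 60.8 ± 2.55. With the empty vector RGS2 stood at 53.9 ± 2.96, below RGS12 at 89.7 ± 7.61 and within the spread of RGS3 at 58.0 ± 4.68. RGS12 and RGS3 have annotated exons of 13755 and 13793 bases in all, and a cell that uses a short transcript of them would have a higher level per base than these values.

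The sum of the 9 members was 9124, 9254 and 8999 normalised reads with SLC2A3 overexpression, against 8727, 8665 and 8875 with the empty vector. RGS2 made up 2.78% ± 0.422 of that sum with SLC2A3 overexpression and 1.29% ± 0.0851 with the empty vector (SD, n = 3 each), so it was a small share of RGS reads in both groups. By subfamily, the R12 genes (RGS10, RGS12 and RGS14) summed to 3687 ± 194 with SLC2A3 overexpression and 3451 ± 94.0 with the empty vector. R4, the subfamily of RGS2, summed to 3144 ± 128 with SLC2A3 overexpression and 2993 ± 21.3 with the empty vector. This sum is over all 10 R4 genes, and so includes genes outside the 9 members. For RZ (RGS17, RGS19 and RGS20), the sums were 2446 ± 149 with SLC2A3 overexpression and 2485 ± 37.9 with the empty vector.

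Of the 12 other RGS genes, 6 passed the filter and 0 were past the threshold in limma or edgeR. DESeq2 called 0 too, but it gave no adjusted p to RGS2, whose mean was above those of these 6 genes. Nothing is read from the DESeq2 count. Of the 6, 1 had an unadjusted limma p under 0.05, where 11.8% of all genes tested did. That gene was RGS11, a partner of the beta subunit GNB5 known from the retina. RGS11 had 23.2, 19.2 and 24.6 normalised reads with SLC2A3 overexpression, against 7.13, 16.0 and 11.01 with the empty vector. Its groups did not overlap, and the log2 difference was 0.97 (SE 0.458, limma adjusted p = 0.405). RGS9, known from photoreceptors and striatum, averaged 114 ± 13.1 with SLC2A3 overexpression and 115 ± 7.67 with the empty vector. RGS20 averaged 79.7 ± 26.8 with SLC2A3 overexpression and 88.9 ± 13.2 with the empty vector, and RGS17 averaged 35.9 ± 8.87 with SLC2A3 overexpression and 44.5 ± 13.6 with the empty vector. RGS5 averaged 29.2 ± 6.91 with SLC2A3 overexpression and 34.6 ± 8.20 with the empty vector, and RGS8 averaged 5.95 ± 3.89 with SLC2A3 overexpression and 5.41 ± 6.23 with the empty vector. RGS4 and RGS21 had no reads. RGS6, RGS7, RGS13 and RGS22 had at most 4 reads in a group.

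RGS2 sits at the end of a run of RGS genes on chromosome 1, in the order RGS18, RGS21, RGS1, RGS13 and RGS2, all on the forward strand. Within 1000 kb on each side GENCODE 29 places 28 other genes, of which 9 passed the filter. None of the 9 was past the threshold in limma or edgeR. DESeq2 called 0 too, but it gave RGS2 no adjusted p, and some of the 9, among them B3GALT2, had lower means than RGS2. Of the 9, 2 had an unadjusted limma p under 0.05, as did 11.8% of all genes tested. These were RO60, an RNA-binding autoantigen, at 2301 ± 105 with SLC2A3 overexpression and 2116 ± 50.4 with the empty vector, and B3GALT2, a galactosyltransferase, at 25.4 ± 3.74 with SLC2A3 overexpression and 12.1 ± 1.80 with the empty vector. The log2 difference of B3GALT2 was 1.01 (SE 0.426, limma adjusted p = 0.318). The groups of RO60 and of B3GALT2 did not overlap, as was so for 16.3% of all genes tested. UCHL5, a deubiquitinase of the proteasome and the nearest tested protein-coding gene, averaged 4890 ± 265 with SLC2A3 overexpression and 4671 ± 219 with the empty vector, with overlapping groups. In the RGS cluster itself, RGS2 and RGS18 were the members with more than a handful of reads, and only RGS2 had groups that did not overlap.

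**Figure D3:**
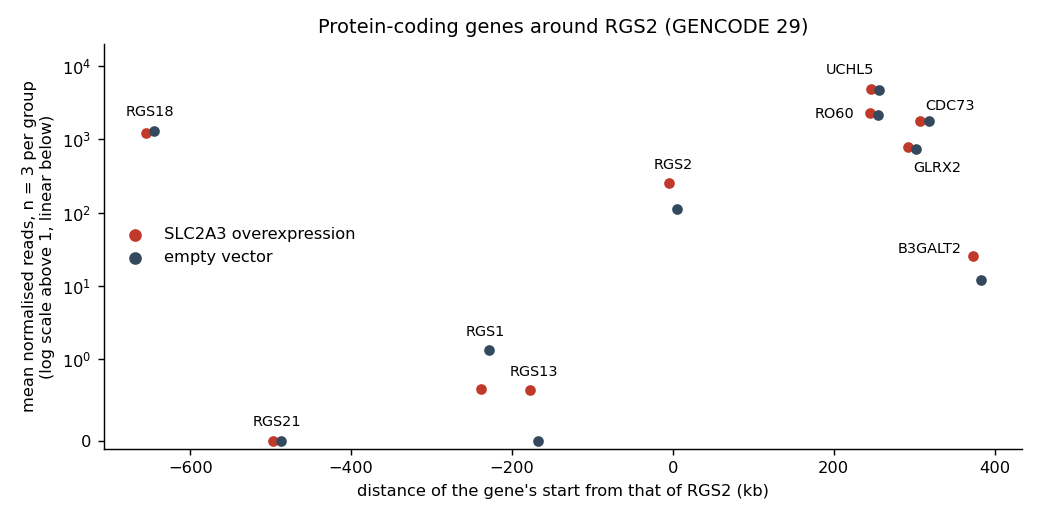
Mean normalised reads (vertical axis, log scale above 1 and linear below, n = 3 per group) of protein-coding genes around RGS2, against the distance of each gene's start from that of RGS2 in kb (horizontal axis). SLC2A3 overexpression (red, drawn slightly left) and empty vector (dark, drawn slightly right) stand apart for RGS2, at 253 and 113. They also stand apart for the low B3GALT2, at 25.4 and 12.1. On this log scale the means nearly coincide for RGS18, UCHL5, RO60, GLRX2 and CDC73, although the groups of RO60 did not overlap.

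Genes with a pattern like that of RGS2 were ranked by the root mean square difference of their centred log2(value + 1) values from those of RGS2 over the 6 libraries, among 11298 genes with a mean of at least 50. The closest was DDIT4, a stress-induced inhibitor of mTORC1, with a difference of 0.0797. DDIT4 had 169, 115 and 126 normalised reads with SLC2A3 overexpression, against 60.1, 59.0 and 62.1 with the empty vector. As for RGS2, the first SLC2A3 overexpression library was the highest and the second the lowest of its group. Next came ID1, an inhibitor of helix-loop-helix transcription factors (0.201), HSPA1A, a heat-inducible chaperone (0.209), and SLC16A11, a monocarboxylate transporter (0.213). They were followed by SLC7A2, a cationic amino acid transporter (0.216), and MATK, a kinase that inhibits SRC-family kinases (0.219). These 6 include SLC16A11, which was not past the threshold (limma adjusted p = 0.0668). All 6 were picked for likeness in these same libraries.

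**Figure D4:**
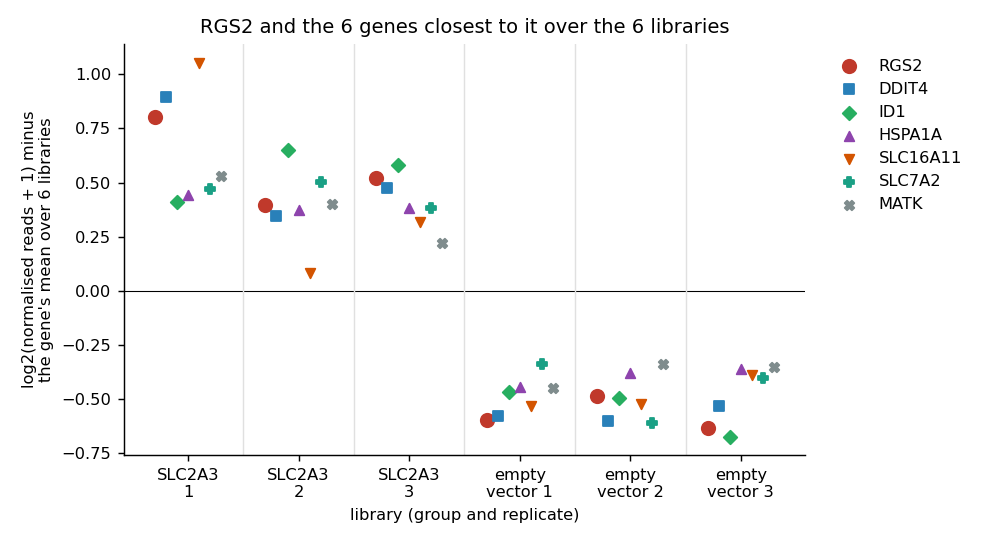
Centred log2(value + 1) in each library (vertical axis) for RGS2 and the 6 genes with the smallest root mean square difference from it, SLC2A3 overexpression libraries left and empty vector libraries right (horizontal axis). DDIT4, at a difference of 0.0797, follows RGS2 most closely, and all 7 genes lie higher in the SLC2A3 overexpression libraries.

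The other genes of the pathway were described by 9 lists, which were written with earlier results of these data known. With the 12 other RGS genes they held 173 genes, of which 150 were tested, 1 was higher, 4 were lower and 145 did not pass. Over all genes tested with limma, 0.692% were higher and 0.8% lower. Receptors come first in the pathway. Of 46 G protein-coupled receptors known from myeloid cells, 37 were tested and 0 passed in limma, although 9 had an unadjusted p under 0.05, where 11.8% of all genes tested did, and edgeR called 2 lower and DESeq2 1 lower. The median log2 difference of the receptors was -0.05. LTB4R, a leukotriene B4 receptor, averaged 6810 ± 73.0 with SLC2A3 overexpression and 6978 ± 260 with the empty vector. ADGRE5, the adhesion receptor CD97, averaged 6513 ± 234 with SLC2A3 overexpression and 6845 ± 50.8 with the empty vector.

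Of 16 alpha subunit genes, the substrates of RGS proteins, 14 were tested and 0 passed in limma or edgeR. At an unadjusted limma p under 0.05 there were 3, beside 11.8% of all genes tested, and DESeq2 called 1 lower. All 3 were lower with SLC2A3 overexpression, GNAI2 and GNAS among them. The groups did not overlap for 5 of the 14, these 2 included, and for 16.3% of all genes tested. The Gi subunit gene GNAI2 averaged 24247 ± 1424 with SLC2A3 overexpression and 26185 ± 364 with the empty vector. The Gs subunit gene GNAS averaged 18019 ± 349 with SLC2A3 overexpression and 19600 ± 736 with the empty vector. Of 17 beta and gamma subunit genes, 15 were tested and 0 passed in limma, edgeR or DESeq2, with 2 at an unadjusted p under 0.05. GNB2 averaged 17041 ± 490 with SLC2A3 overexpression and 17481 ± 588 with the empty vector, and GNB1 averaged 12348 ± 167 with SLC2A3 overexpression and 12924 ± 438 with the empty vector. The median log2 difference was -0.05 over the alpha subunit genes and -0.06 over the beta and gamma subunit genes.

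The lists of RGS-domain relatives, alpha subunit modulators and RGS turnover genes had median log2 differences of -0.05 for the RGS-domain relatives, -0.01 for the modulators and -0.04 for the turnover genes. Of 16 RGS-domain relatives, 14 were tested and 0 passed in limma or edgeR, while DESeq2 called 1 lower. Of the 14, 2 had an unadjusted limma p under 0.05, where 11.8% of all genes tested did. The receptor kinase GRK2 averaged 40048 ± 1468 with SLC2A3 overexpression and 40368 ± 1600 with the empty vector. All 8 alpha subunit modulators and arrestins were tested and 0 passed in limma, edgeR or DESeq2, with 2 at an unadjusted p under 0.05. ARRB1, an arrestin, averaged 7172 ± 276 with SLC2A3 overexpression and 7200 ± 234 with the empty vector, and GPSM3, a GoLoco protein, averaged 6090 ± 109 with SLC2A3 overexpression and 6152 ± 292 with the empty vector. Of 8 genes for RGS protein turnover, 8 were tested and 0 passed in limma, with 1 at an unadjusted p under 0.05. That gene, the ubiquitin ligase UBR4, was called lower by edgeR and by DESeq2. It averaged 11639 ± 1066 with SLC2A3 overexpression and 13064 ± 487 with the empty vector, while DDB1 averaged 10979 ± 285 with SLC2A3 overexpression and 11382 ± 103 with the empty vector.

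Among 26 effector genes, 25 were tested, and limma called 2 lower and 0 higher. Over all genes tested with limma, 0.8% were lower and 0.692% higher. edgeR called 4 lower and 0 higher, and DESeq2 4 lower and 1 higher. Over all genes with an adjusted p, edgeR called 3.29% either way and DESeq2 7.98%. An unadjusted limma p under 0.05 was found for 8 effectors and for 11.8% of all genes tested. The groups did not overlap for 9 effectors and for 16.3% of all genes tested. ADCY9, an adenylyl cyclase that makes cAMP, had 2388, 2083 and 2215 normalised reads with SLC2A3 overexpression, against 2591, 2749 and 2738 with the empty vector. Every SLC2A3 overexpression library lay below every empty vector library, and the log2 difference was -0.27 (SE 0.058, limma adjusted p = 0.00854). PRKACA, a catalytic subunit of the cAMP-dependent kinase, had 3846, 3405 and 3716 with SLC2A3 overexpression, against 4243, 4062 and 4337 with the empty vector. Its log2 difference was -0.21 (SE 0.052, limma adjusted p = 0.0359), with groups that did not overlap. ADCY9 no longer passed without SLC2A3 overexpression replicate 2 or 3, and PRKACA no longer passed without either of those or without empty vector replicate 1 or 3. The median log2 difference of the effector list was 0.02.

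Of 16 genes known to respond to cAMP and CREB, 15 were tested, and limma called 2 lower and 0 higher. Over all genes tested with limma, 0.8% were lower and 0.692% higher. edgeR and DESeq2 each called 2 lower and 1 higher, where edgeR called 3.29% of all genes either way and DESeq2 7.98%. The higher gene was PDE4D, a cAMP phosphodiesterase, at 1140 ± 67.2 with SLC2A3 overexpression and 957 ± 46.6 with the empty vector, a log2 difference of 0.25 (SE 0.071, limma adjusted p = 0.0773). FOS, an AP-1 subunit, had 653, 738 and 607 normalised reads with SLC2A3 overexpression, against 1000, 1047 and 1064 with the empty vector. EGR1, a zinc finger transcription factor, had 677, 724 and 713 with SLC2A3 overexpression, against 905, 922 and 1055 with the empty vector. Both lay lower in every SLC2A3 overexpression library, with log2 differences of -0.64 for FOS (SE 0.079, limma adjusted p = 1.91e-05) and -0.44 for EGR1 (SE 0.078, limma adjusted p = 0.00156). The direction of FOS and EGR1 is opposite to that of RGS2 in the same libraries, and why was not tested. Of the 15 tested genes, 6 had a log2 difference above 0, as RGS2 did. In this list 7 genes had an unadjusted limma p under 0.05, 6 of them lower, where 11.8% of all genes tested did, either way. The groups did not overlap for 8 of its genes and for 16.3% of all genes tested. The list's median log2 difference was -0.10.

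The translation factors eIF2 and eIF2B were followed because RGS2 is known to bind eIF2B. All 8 subunit genes were tested, and limma called 1 higher and 0 lower, where 0.692% of all genes tested were higher and 0.8% lower. The groups did not overlap for 3 of the 8 and for 16.3% of all genes tested. The median log2 difference of the 8 was 0.02. EIF2S2, the beta subunit of eIF2, had 10366, 10565 and 10521 normalised reads with SLC2A3 overexpression, against 9334, 9688 and 9158 with the empty vector. It was higher in every SLC2A3 overexpression library by a log2 difference of 0.16 (SE 0.040, limma adjusted p = 0.0374). EIF2S2 no longer passed without SLC2A3 overexpression replicate 2 or 3 or without empty vector replicate 1 or 3.

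**Figure D5:**
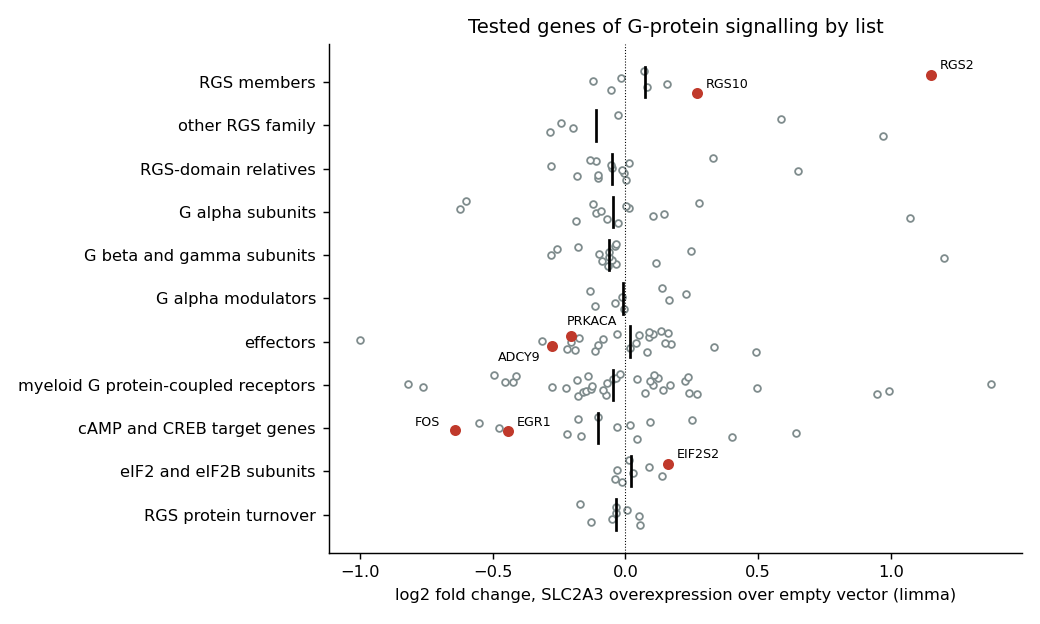
Log2 difference of SLC2A3 overexpression minus empty vector (log2 of value + 1) for each tested gene of the pathway lists, grouped by role. Black bars are list medians, which lie between -0.11 and 0.08, and red points are genes past limma's adjusted p threshold of 0.05.

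RN7SL1, a gene of the RNA of the signal recognition particle, was also past the threshold and higher with SLC2A3 overexpression. Its log2 difference was 1.74 (SE 0.290, limma adjusted p = 0.000861), and its groups did not overlap. RN7SL1 had 2233, 6026 and 1922 normalised reads with SLC2A3 overexpression, against 538, 1812 and 705 with the empty vector, with replicate 2 the highest of each group. Without both of those libraries the log2 difference of RGS2 was 1.28 and that of RGS10 was 0.26, and RGS10 no longer passed the threshold. ADCY9, at -0.21, and PRKACA, at -0.18, did not pass either. In the libraries that remained, RN7SL1 still stood at 2233 and 1922 with SLC2A3 overexpression, against 538 and 705 with the empty vector. Leaving those libraries out therefore cannot show what part RN7SL1 has in the other differences, and this was not tested.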

How the data were processed

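RNA-seq libraries from Trizol-extracted RNA of OCI-AML3 cells (3 SLC2A3 overexpression, 3 empty vector) were made with a NEBNext Ultra II Directional kit, per the labels. BWA, TopHat2 and the build hg38 are named, without roles, in the submitters' processing notes. The read counter, annotation and strand setting are not given in the sources used here. The deposited values are a normalised signal: read counts that the authors had divided by 1 size factor per library, between 0.936 and 1.08. This was read from the values, of which 100% were whole reads after rescaling, within 0.001 reads. Coordinates and exon lengths are from GENCODE 29 on GRCh38 and may differ from the authors' annotation. Symbols came from a gene name table for 60463 of 60660 IDs.

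log2(value + 1) was fitted for every gene whose value reached 1 in 3 or more libraries, with limma 3.58.1 in R 4.3.3, group as the only term and Benjamini-Hochberg adjustment at 0.05. This scale understates the fold change of low genes. edgeR 4.0.16 and DESeq2 1.42.0 were run on the recovered reads as alternatives, beside other filters, pseudocounts and scalings, fits that left out 1 library, and a block for the replicate number. The functions were tested on simulated data. Chi-square per gene between replicates was 3.50 to 6.78, so no library was a copy. As separate cultures are not stated, p-values speak only of the spread between the 6 libraries.

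The members and lists were chosen with earlier results of these data known. The genes named are the 9 members, other RGS genes with a mean of at least 5 in either group, called list members (at most 4 a list, or the 2 with the highest mean where none was called), SLC2A3, the 6 genes most like RGS2 and the genes next to it. RN7SL1, B3GALT2, RO60 and PDE4D were chosen after their values were seen. Of the genes this rule names, 1 is not reported here.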

Additional observations from a re-analysis of the deposited data

How the results depend on the processing

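Over 17 alternatives, RGS2 was higher in the 16 that gave it an adjusted p, by log2 1.03 to 1.28. DESeq2's default filtering gave it none. RGS10 was higher in all 17, and past the threshold in 8. Its log2 difference was 0.27 with a replicate block in limma, 0.27 with a pseudocount of 0.1 and 0.26 without both libraries highest in RN7SL1. None of these was past the threshold. With each library left out in turn the difference was 0.25 to 0.29, also not past the threshold. RGS12 and RGS19, never past the threshold, changed sign under some alternatives. The members called higher, 2 in the report, numbered 1 under DESeq2, with the replicate block in limma, with a pseudocount of 0.1 and without both libraries highest in RN7SL1, and 1 to 1 with each library left out. Genes called higher over the whole table, 194 in the report, numbered 343 with DESeq2, 297 and 303 with edgeR's relative log and upper-quartile scalings, 322 with a minimum value of 50, and 100 to 222 with a library left out. Genes called lower, 224, numbered 441 with DESeq2, 144 with a pseudocount of 0.1, 417 with a minimum of 50, and 88 to 244 with a library left out. In the pathway lists, the count of higher genes, 1, was 3 with DESeq2. It was 2 with each edgeR scaling without a block (TMM, relative log, upper quartile) and with a minimum of 50. The count was 0 with the block in limma or a pseudocount of 0.1, 1 with the block in edgeR, and 0 to 1 with a library left out. The count of lower genes, 4, was 10 with DESeq2, 9 and 8 with edgeR's TMM and relative log scalings, 10 with a minimum of 50, and 2 to 5 with a library left out. Same-numbered replicates did not deviate together (correlations of -0.08, 0.00 and 0.00 over 13277 genes), so the numbers are not taken as pairs. With the block in edgeR, 2 members were called. For these changes the cause was not tested. Depth limits RGS1, at 2 against 4 reads, and leaves RGS11 with a wide interval. Both alternatives on RN7SL1 and on the edgeR block were chosen after seeing the data.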
